A study of Mus musculus with 24 samples.

Results

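The effect of trisomy on the control diet was examined in 12 of the 24 libraries of the series, 6 from Ts65Dn mice and 6 from disomic (2N) mice, which were chosen by the genotype and treatment given in the sample titles. Ts65Dn mice model Down syndrome and carry an extra copy of parts of chromosomes 16 and 17, whereas 2N mice carry the usual number of copies. Both groups were male, about 6 months old, and born to Ts65Dn dams mated with F1 males of C57Bl/6J Eicher and C3H/HeSnJ stock. Choline chloride was 1.1 g/kg in the chow of their dams, and the offspring ate this control diet after weaning. The other 12 libraries, 8 Ts65Dn and 4 2N, came from offspring of dams fed 5.0 g/kg. Each library holds total RNA of about 500 neurons that were stained for choline acetyltransferase (ChAT) and captured by laser from the MS/VDB area, the medial septum and the vertical limb of the diagonal band. There was 1 library per animal, the litter is not given in the labels, and p-values treat animals as independent.

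Cholinergic neurons of the basal forebrain send acetylcholine to the hippocampus and cortex, support attention and memory, and degenerate in Down syndrome and in Alzheimer's disease. They receive excitatory input through glutamate receptors, which are held at the synapse by scaffold proteins, and calcium that enters through receptors and voltage-gated channels is cleared by pumps and exchangers. Their long axons depend on neurofilaments, on mitochondria and on the endosomes that carry trophic signals back to the cell body.

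Several libraries stood apart. Total counts ran from 4688300 to 11626606 in Ts65Dn libraries and from 7626896 to 13307851 in 2N libraries, and genes detected from 13108 to 20648 in Ts65Dn and from 16813 to 20977 in 2N libraries. Library 3 of the Ts65Dn group (Ts65Dn 3) had the lowest total and the fewest detected genes, and its animal identifier alone carries a suffix R whose meaning the labels do not give. Chat RNA, the transcript of the enzyme used to find the cells, was under 1 CPM (counts scaled to a library total of 1000000) in Ts65Dn 3, 5 and 6 and in 2N 5. Xist, a transcript of the inactive X chromosome, had 237, 155 and 80 counts in Ts65Dn 1, 2 and 6 beside counts of the Y-linked Kdm5d, although all animals are described as male. Of the 8 cholinergic markers, all had negative fold changes and none passed the test. Their summed level was 1.71, 46.3 and 146 CPM (lowest, median and highest library) in Ts65Dn and 92.0, 137 and 192 in 2N libraries. Glial markers were present in all 12 libraries. The oligodendrocyte markers summed to 742, 3070 and 4372 CPM in Ts65Dn and to 3479, 3923 and 4461 in 2N libraries. In such samples, fewer cells of a type and less RNA per cell cannot be told apart.

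With edgeR's quasi-likelihood test and Benjamini-Hochberg adjustment, 67 of 19967 tested genes passed an adjusted p of 0.05, which is 0.336% of them. Of these, 58 were higher in Ts65Dn (0.29%) and 9 lower (0.0451%). Genes with at least 10 counts in each of the 12 libraries are called well counted here. Among the 6655 well-counted genes 41 passed (0.616%), 33 of them higher (0.496%) and 8 lower (0.12%). The 41 comprised 20 named genes that rose and 7 that fell, 4 further named genes that rose with larger p (Shank1, Hap1, Arhgap33 and Rreb1), and unnamed models or identifiers, of which 9 rose and 1 fell. Of the 27 leading named genes, 22 differed from the 2N mean in the called direction in each of the 6 Ts65Dn libraries. Those 27 were chosen by smallest p from the same libraries, so this count is no separate evidence. At an unadjusted p under 0.05 there were 2179 genes (10.9%).

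The calls leaned on 1 library. Ts65Dn 3 had the highest level of all 12 libraries for 47 of the 67 called genes and for 22 of the 33 well-counted genes that rose. Without it 4 genes passed, Lars2, Mir6236, Atp2b4 and 1 identifier without a symbol, although all 41 well-counted genes kept their sign. Leaving out any of 8 other libraries also moved the count by over 1.5 times, to 117 without Ts65Dn 2, 127 without Ts65Dn 4, 43 without Ts65Dn 6, and 22, 19, 22, 21 and 35 without 2N 1, 2, 3, 5 and 6. Without the 4 libraries in which Chat was under 1 CPM, Lars2 and Mir6236 passed. Within the animals whose identifier starts with 17 (4 against 4) none passed and 916 genes had an unadjusted p under 0.05. The other prefixes hold 1 genotype each, so that prefix and genotype cannot be told apart there. Levels below are CPM scaled by TMM factors, given as the lowest, median and highest of the 6 libraries, and log2 fold changes are Ts65Dn over 2N with their standard error (SE).

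**Figure D1:**
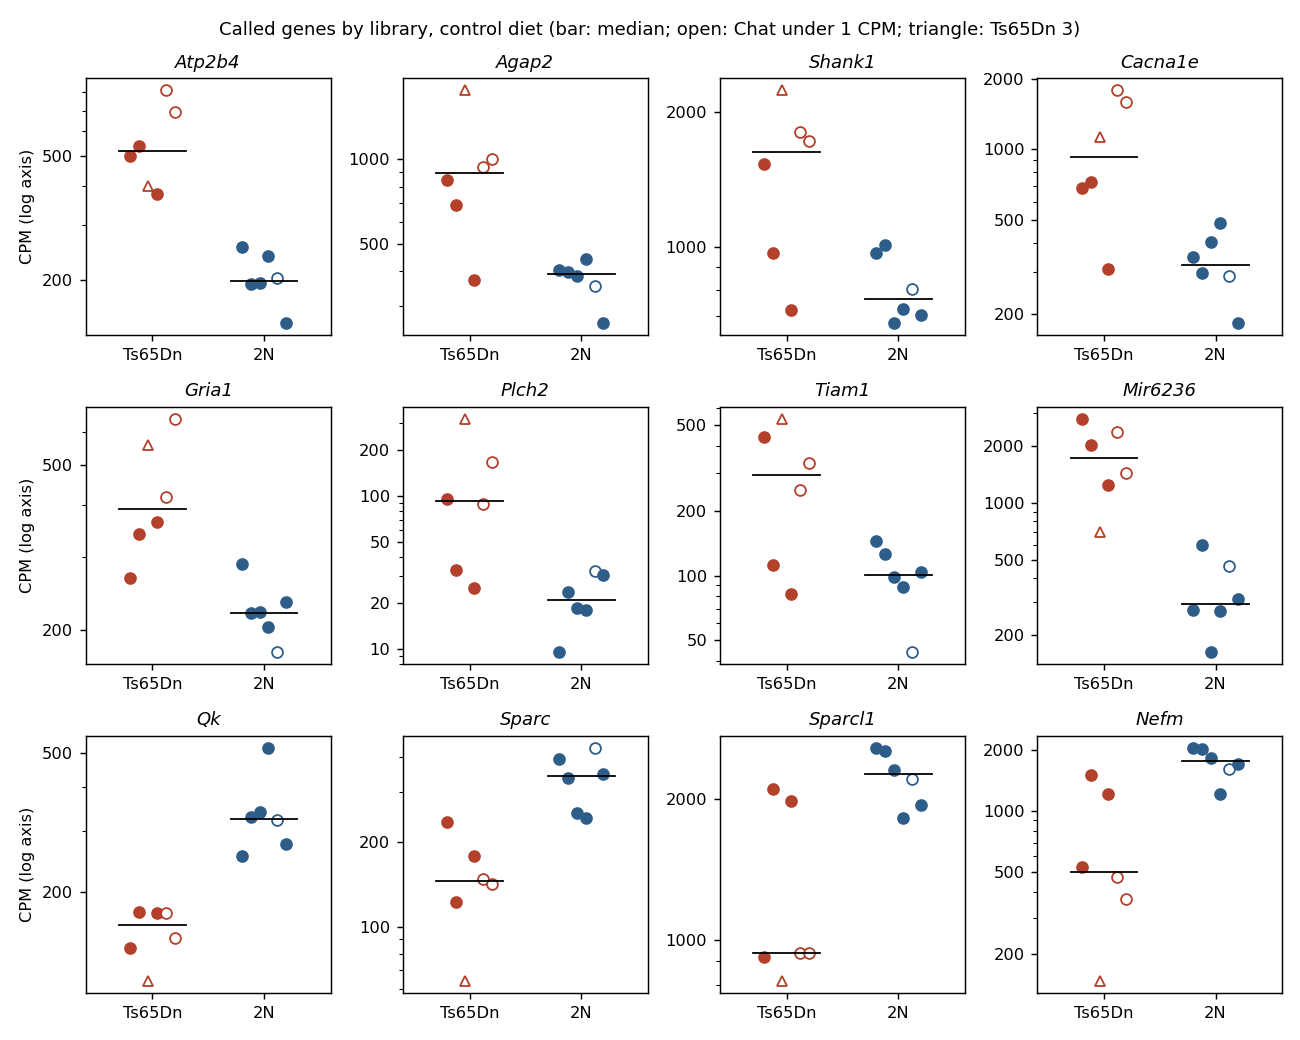
Level of 12 called genes in each of the 12 control-diet libraries, on a log axis in CPM, with Ts65Dn left of 2N in each panel. Each point is 1 library, the bar is the group median, open symbols mark libraries with Chat under 1 CPM and triangles mark Ts65Dn 3. Points of the 2 groups do not overlap for Atp2b4, Mir6236, Qk and Sparc.

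Among the genes of calcium handling Atp2b4 rose, and it was 1 of the 4 calls left without Ts65Dn 3. It encodes a calcium ATPase of the cell membrane that expels calcium after activity. Atp2b4 had 377, 519 and 814 CPM in Ts65Dn libraries and 145, 199 and 256 CPM in 2N libraries. The groups did not overlap, and the 3 highest Ts65Dn libraries did not include Ts65Dn 3. The rise was 1.43 ± 0.27 (adjusted p = 0.00789). Its fold change lay between 1.18 and 1.69 over 30 alternative fits and passed in 27 of them. It was 1.50 (adjusted p = 0.0103) without Ts65Dn 3, 1.18 without the libraries low in Chat and 1.57 within prefix 17.

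The other calcium pumps and exchangers did not move as a list. Of 12 tested members 6 had positive fold changes, Atp2b4 alone was called, and the median was 0.06, against −0.02 over all tested genes. The neuronal pump Atp2b2 was at −0.18 ± 0.17 and the pump of the endoplasmic reticulum Atp2a2 at −0.20 ± 0.18. Slc8a2, a sodium-calcium exchanger of neurons, had 49.8, 119.7 and 314 CPM in Ts65Dn and 17.0, 44.3 and 57.5 CPM in 2N libraries, a log2 difference of 1.79 ± 0.44 that missed the threshold (adjusted p = 0.0571). Only the lowest Ts65Dn library fell within the 2N range.

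Among 16 voltage-gated calcium channel genes 14 had positive fold changes (median 0.37, 0.33 without Ts65Dn 3, and 0.10 with the glial score as a covariate) and 1 was called. Cacna1e, the pore of the R-type channel, had 309, 925 and 1786 CPM in Ts65Dn and 182, 324 and 486 CPM in 2N libraries. The single Ts65Dn library inside the 2N range was Ts65Dn 4, and the 3 highest were Ts65Dn 3, 5 and 6. Cacna1e rose by 1.63 ± 0.33 (adjusted p = 0.014), and its fold change was 1.60 without Ts65Dn 3 (adjusted p = 0.0666) and 0.72 without the libraries low in Chat. The T-type pore gene Cacna1g was at 0.997 ± 0.276 (adjusted p = 0.114).

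Calcium also acts through kinases and lipases. Camk2a, the alpha subunit of calcium/calmodulin-dependent kinase II, had 266, 893 and 2529.8 CPM in Ts65Dn and 135, 198 and 678 CPM in 2N libraries. Ts65Dn 3, 5 and 6 stood above all 2N libraries and Ts65Dn 1, 2 and 4 within their range. It rose by 1.85 ± 0.45 (adjusted p = 0.0472), with 1.38 without Ts65Dn 3 and 0.24 without the libraries low in Chat. Plch2, a phospholipase C that splits membrane phosphoinositides, had 25.1, 92.9 and 321 CPM in Ts65Dn and 9.50, 21.0 and 32.6 CPM in 2N libraries. The lowest Ts65Dn library lay inside the 2N range. Plch2 rose by 2.46 ± 0.48 (adjusted p = 0.0088), and its fold change was 1.89 without Ts65Dn 3. The medians of the 2 lists were 0.19 over 30 calcium-dependent kinases and phosphatases (−0.07 without Ts65Dn 3) and −0.02 over 45 genes of phosphoinositide signalling.

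Postsynaptic scaffold and spine genes were the function list with the most members at low p. These proteins form the density beneath excitatory synapses and tie receptors to actin and to small GTPases. Of 31 tested members 29 had positive fold changes, 19 had an unadjusted p under 0.05, all in the positive direction, and 2 were called. Over all well-counted genes 463 (6.96%) had such a p in that direction and 366 (5.5%) in the other. The median of the list was 0.75, against 0.01 over all well-counted genes, and 30 of 31 members were positive without Ts65Dn 3 (median 0.67). The list was written with earlier results of these data known, so these counts describe it and are no separate evidence.

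Agap2, a GTPase-activating protein that also binds phosphoinositide 3-kinase, had 372, 891 and 1764 CPM in Ts65Dn and 261, 392 and 442 CPM in 2N libraries. Ts65Dn 4 was the lowest and alone fell within the 2N range. Agap2 rose by 1.32 ± 0.27 (adjusted p = 0.014), and its fold change was 1.03 without Ts65Dn 3 (adjusted p = 0.165). Shank1, a master scaffold of the density, had 723, 1628 and 2241 CPM in Ts65Dn and 675, 767 and 1009.6 CPM in 2N libraries, and rose by 0.88 ± 0.21 (adjusted p = 0.0472). Ts65Dn 2 and 4 lay within the 2N range and the other 4 above it. Its fold change was 0.72 without Ts65Dn 3, where it did not pass.

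The related scaffolds missed the threshold with values in the same direction. Shank2 was at 1.03 ± 0.28 and Shank3 at 0.96 ± 0.27. Ppp1r9b, which encodes spinophilin, was at 0.97 ± 0.24 (adjusted p = 0.055). Homer2 and the dendritic protein gene Ddn reached 1.91 ± 0.49 and 2.21 ± 0.58 with wide spreads. The most familiar member, Dlg4, which encodes PSD-95, was at 0.35 ± 0.21 and Homer1 at 0.31 ± 0.47. The 2 members below 0 were Iqsec1 (−0.28 ± 0.19) and Homer3 (−0.08 ± 1.32).

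**Figure D2:**
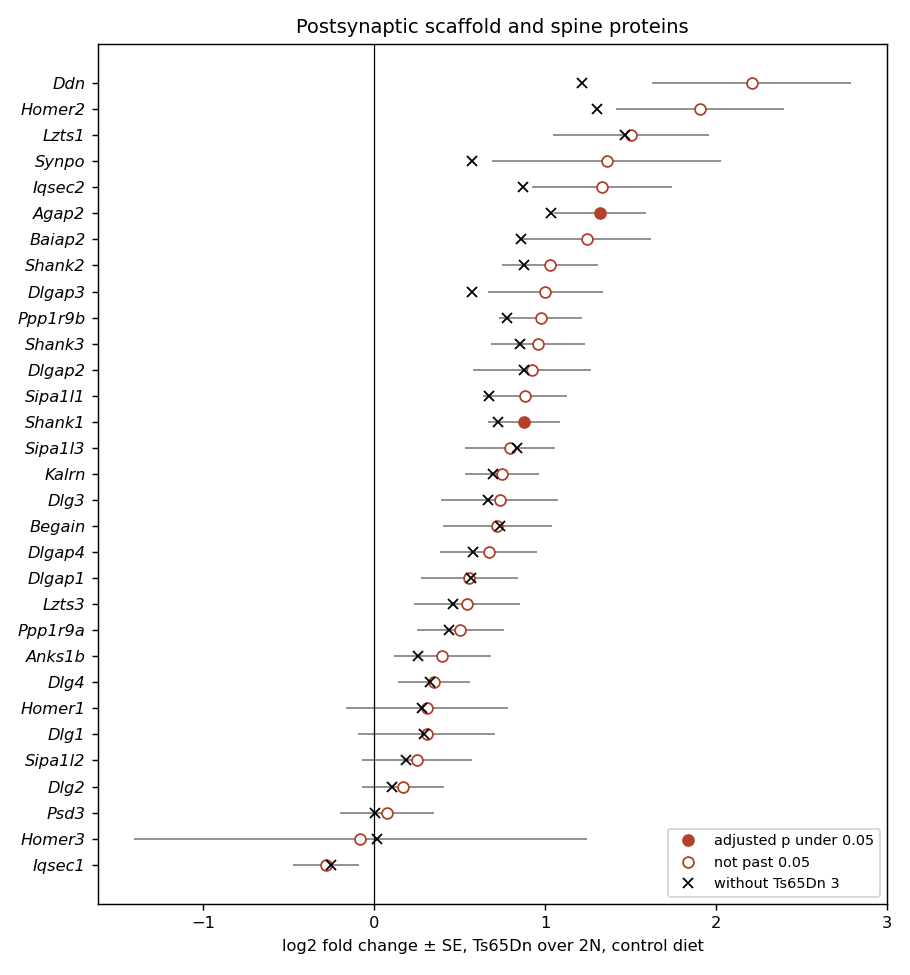
Log2 fold change of Ts65Dn over 2N on the control diet for the 31 tested postsynaptic scaffold and spine genes, with bars for the standard error. Filled points passed an adjusted p of 0.05, open points did not, and crosses give the value without Ts65Dn 3. Filled points are Agap2 and Shank1, and 29 of the 31 points lie to the right of 0.

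Other measures moved with the scaffold list. Its score per library, the mean centred log2 CPM of its members, was −0.37, 0.39 and 0.99 in Ts65Dn and −0.59, −0.33 and −0.11 in 2N libraries. Its median was 0.31 without the libraries low in Chat, the lowest of all alternatives, and 0.90 within prefix 17, the highest. The 9 glutamatergic neuron markers summed to 336, 1008 and 3169 CPM in Ts65Dn and to 158, 247 and 942 in 2N libraries, mostly through Camk2a. The other 8 of these markers summed to 34.4, 98.8 and 922 CPM in Ts65Dn and to 17.8, 40.3 and 221 in 2N libraries, with Ts65Dn 3 the highest, and none of the 9 was at 0 in all 12 libraries. The glial score was −1.08, −0.42 and 0.17 in Ts65Dn and 0.10, 0.37 and 0.66 in 2N libraries, and with it as a covariate the scaffold median was 0.49 with no gene called. Their part in the result was not tested.

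The receptors held by these scaffolds showed fewer changes. Of 24 genes for AMPA receptor subunits and their partners 14 had positive fold changes (median 0.13, and −0.05 without the libraries low in Chat) and 2 were called. Gria1, the GluA1 subunit, had 268, 392 and 643 CPM in Ts65Dn and 177, 220.4 and 288 CPM in 2N libraries, with only the lowest Ts65Dn library inside the 2N range. Gria1 rose by 0.95 ± 0.22 (adjusted p = 0.0376). The pentraxin receptor gene Nptxr, whose product clusters AMPA receptors, rose by 1.81 ± 0.40 (adjusted p = 0.0299), but its values of 81.6, 413 and 1796 CPM in Ts65Dn and 94.2, 145 and 326 CPM in 2N libraries overlapped. Its fold change was 0.26 without the libraries low in Chat.

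Among 14 NMDA and kainate receptor genes 10 had positive fold changes (median 0.44, and 0.22 without the libraries low in Chat) and none was called. The kainate subunit gene Grik5 had 99.4, 135 and 319 CPM in Ts65Dn and 65.8, 78.0 and 86.9 CPM in 2N libraries, without overlap (1.16 ± 0.32, adjusted p = 0.111). The NMDA subunit genes Grin2a and Grin2b were at 0.99 ± 0.33 and 0.70 ± 0.24.

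Genes induced by activity had the largest median of the function lists at 1.09, and none was called. Of 22 members 18 were positive and 7 had an unadjusted p under 0.05. Arc, a synaptic protein made after activity, had 46.6, 110.3 and 231 CPM in Ts65Dn and 19.7, 37.5 and 47.5 CPM in 2N libraries (1.79 ± 0.46, adjusted p = 0.0746). Its groups overlapped by the lowest Ts65Dn library. The neuronal transcription factor Npas4 had 14.9, 42.8 and 79.7 CPM in Ts65Dn and 2.32, 10.2 and 16.7 CPM in 2N libraries (2.17 ± 0.73, adjusted p = 0.201). The list median was 0.54 without Ts65Dn 3 and 0.18 without the libraries low in Chat.

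Further genes that rose have roles in spines, adhesion and guidance. Tiam1, a Rac activator of dendritic spines that lies in the triplicated segment of chromosome 16, had 82.3, 292 and 534 CPM in Ts65Dn and 44.0, 101 and 145 CPM in 2N libraries, and rose by 1.53 ± 0.33 (adjusted p = 0.0205). Ts65Dn 2 and 4 fell within the 2N range. Arhgap33, a sorting protein with a GTPase-activating domain, rose by 1.77 ± 0.43 (adjusted p = 0.0487), whereas the 53 GTPase exchange factors and actin regulators as a list had a median of −0.10. Adgrb2, an adhesion receptor of the brain angiogenesis inhibitor family, rose by 1.29 ± 0.29 and the netrin receptor gene Unc5a by 1.77 ± 0.41 (adjusted p = 0.0313 and 0.0412). Of 46 axon guidance genes 25 were positive (median 0.06, 1 called), and of 46 synaptic adhesion genes 17 were positive (median −0.12, none called).

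Hivep3, a zinc finger transcription factor, had 110.5, 169 and 361 CPM in Ts65Dn and 55.8, 70.9 and 88.6 CPM in 2N libraries, without overlap, and rose by 1.43 ± 0.31 (adjusted p = 0.0219). Pdlim7, an adaptor of the actin cytoskeleton, rose by 2.06 ± 0.48 (adjusted p = 0.0412), also without overlap, at 31.0, 52.7 and 119.8 CPM in Ts65Dn and 4.35, 14.0 and 22.2 CPM in 2N libraries. Mast3, a kinase with a PDZ domain, and Celf5, a neuronal RNA-binding protein, rose by 1.60 ± 0.37 and 1.81 ± 0.43. Hap1, which binds huntingtin, and the transcription factor Rreb1 rose by 1.16 ± 0.28 and 1.59 ± 0.39. All 4 were above the 2N mean in all 6 Ts65Dn libraries. None of Hivep3, Pdlim7, Mast3, Celf5, Hap1, Rreb1, Tiam1, Arhgap33, Adgrb2 and Unc5a passed without Ts65Dn 3, where their fold changes were 1.13 to 1.74.

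Of the 7 named genes that fell, 5 had groups that did not overlap. Qk, an RNA-binding protein that controls splicing and myelin transcripts and is abundant in glia, had 111, 161 and 175 CPM in Ts65Dn and 254, 324 and 517 CPM in 2N libraries. The 6 Ts65Dn libraries lay in a narrow band below all 2N libraries. Qk fell by 1.14 (SE 0.23, adjusted p = 0.0111), with −1.08 without Ts65Dn 3 (adjusted p = 0.0772) and −1.09 without the libraries low in Chat.

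Ppm1l, a phosphatase of stress kinases and ceramide transport, had 14.9, 54.0 and 92.9 CPM in Ts65Dn and 134, 148 and 198 CPM in 2N libraries (−1.49 ± 0.31, adjusted p = 0.0186). Tmem184c, a membrane protein, was at −1.99 ± 0.44 and Tspyl4, of the nucleosome assembly protein family, at −1.21 ± 0.28 (adjusted p = 0.03 and 0.0401). All 3 fell in every Ts65Dn library relative to every 2N library.

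Sparc and Sparcl1 encode secreted matrix proteins that are made largely by glia and vessels and act on synapse formation. Sparc had 63.9, 145 and 235 CPM in Ts65Dn and 244, 343 and 431 CPM in 2N libraries, without overlap (−1.18 ± 0.27, adjusted p = 0.0376). Sparcl1 had 816, 937 and 2111 CPM in Ts65Dn and 1827, 2263 and 2579 CPM in 2N libraries (−0.80 ± 0.19, adjusted p = 0.0472), where Ts65Dn 2 and 4 reached the 2N range and the other 4 did not. Of the 15 astrocyte markers 13 had negative fold changes (median −0.31) and none was called. They summed to 2577, 2799 and 3038 CPM in Ts65Dn and to 2804, 3157 and 3600 in 2N libraries. With the glial score as a covariate no gene passed, and the fold changes were −0.67 for Qk, −1.20 for Sparc and −0.41 for Sparcl1. Lars2, at 2.17, also missed the threshold in that fit.

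Neurofilaments give large axons their calibre. Nefm, the medium chain, had 146, 502 and 1494 CPM in Ts65Dn and 1205, 1757 and 2038 CPM in 2N libraries and fell by 1.29 (SE 0.30, adjusted p = 0.0412). Ts65Dn 2 and 4 overlapped the 2N range. The heavy chain Nefh was at −1.06 ± 0.31 (adjusted p = 0.163). Of 13 neurofilament and tubulin genes 12 had negative fold changes (median −0.47), but the median was −0.05 without the libraries low in Chat.

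Most genes of the respiratory chain and the citric acid cycle had negative fold changes, with no call. The mitochondrial genome encodes core subunits of the respiratory chain. Of its 11 tested mRNAs 10 were negative and 8 had an unadjusted p under 0.05 (median −0.88), and mt-Atp6 had no count in any of the 12 libraries. The median was −0.33 with the glial score as a covariate and −0.57 with GC offsets. For mt-Co1 the values were 1407, 3755 and 9476 CPM in Ts65Dn and 6297, 10099 and 10915 CPM in 2N libraries (−1.05 ± 0.26, adjusted p = 0.0539). Ts65Dn 2 and 5 reached the 2N range and the other 4 did not. On the supplemented diet the median of the same list was 0.85, but the test of the difference between diets called none of its members.

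Nuclear genes of energy metabolism had smaller differences. Negative fold changes were seen for 32 of 37 complex I subunits (median −0.64), 35 of 40 subunits of complexes II to V (−0.55) and 25 of 28 genes of pyruvate oxidation and the citric acid cycle (−0.44). The complex III core gene Uqcrc1 had 57.0, 83.8 and 146 CPM in Ts65Dn and 136, 214 and 233 CPM in 2N libraries (−1.06 ± 0.29, adjusted p = 0.103). Mdh2, the mitochondrial malate dehydrogenase, was at −0.80 ± 0.26. With the glial score as a covariate the 3 medians were −0.19, −0.17 and −0.11, and without the libraries low in Chat −0.41, −0.31 and −0.28. Glycolysis had 6 of 21 members positive (median −0.17).

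Endosomes, lysosomes and protein turnover showed the same sign. For the vacuolar ATPase and lysosome list 36 of 40 members were negative (median −0.33) and 7 had an unadjusted p under 0.05, among them the proton pump subunit Atp6v1h (−1.34 ± 0.46) and the lysosome membrane protein Scarb2 (−1.08 ± 0.38). For endosomal Rab, retromer and sorting proteins 40 of 47 were negative (−0.31), for the proteasome 31 of 40 (−0.38) and for chaperones 34 of 45 (−0.36), with no call in any of the 4 lists. With the glial covariate the endosomal median turned to 0.14, and the others were −0.11 for the vacuolar ATPase and lysosome, −0.37 for the proteasome and −0.19 for chaperones. Hsp90aa1, an abundant chaperone, had 447, 609.6 and 942 CPM in Ts65Dn and 757, 1002 and 1289.6 CPM in 2N libraries (−0.65 ± 0.22, adjusted p = 0.201).

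Chromatin genes leaned the other way. Of 56 enzymes and readers of DNA and histone methylation 38 were positive (median 0.19, and −0.00 without the libraries low in Chat) and none was called. The DNA demethylase Tet3 was at 0.99 ± 0.27 (adjusted p = 0.115). The histone methyltransferase Kmt2d had 842, 999 and 1306 CPM in Ts65Dn and 548, 710.4 and 845 CPM in 2N libraries (0.53 ± 0.18, adjusted p = 0.197). The maintenance methyltransferase Dnmt1 did not overlap between groups, at 117, 127 and 157 CPM in Ts65Dn and 58.5, 83.9 and 102 CPM in 2N libraries (0.64 ± 0.27, adjusted p = 0.336).

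Several further lists held no or few calls. The 48 genes of synaptic vesicles and release were at 0.05, with 26 positive, and the 40 genes of choline, phospholipid and one-carbon metabolism, the pathway fed by dietary choline, at −0.11, with 19 positive. The 20 cholinergic identity genes stood lower, at −0.72 and at −0.20 without the libraries low in Chat. Chat itself had 0, 7.31 and 18.1 CPM in Ts65Dn and 0.800, 14.1 and 21.6 CPM in 2N libraries, and the neurotrophin receptor gene Ngfr had 1.92, 14.9 and 40.2 CPM in Ts65Dn and 24.8, 42.1 and 75.4 CPM in 2N libraries (−1.38, adjusted p = 0.268). The striatal projection neuron markers had 7 of 11 members positive (median 0.40), the microglia markers 11 of 15 (0.36) and the GABAergic neuron markers 3 of 12 (−0.38), with no call among them. Further medians were −0.35 for cholesterol synthesis and transport, −0.32 for sodium channels and pumps and −0.27 for the unfolded protein response. Without the libraries low in Chat these were −0.08, −0.09 and −0.02. For 78 mitochondrial ribosomal proteins the median was −0.37, but 0.13 over the 15 that were well counted. For m6A RNA methylation it was 0.27, and −0.26 without the libraries low in Chat. Of its 16 tested members 9 were positive and 7 negative, and 1, Cbll1, was called lower.

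Symbol families, formed from the letters before the first digit, gave a view that used no written list. Of 67 families with at least 10 well-counted genes, collagens (Col) had the highest median, 0.76 with 13 of 17 positive and none called, and 0.49 without Ts65Dn 3. The vascular basement membrane collagens Col4a1 and Col4a2 were at 1.01 ± 0.34 and 0.82 ± 0.30. The 15 vascular markers summed to 237, 339 and 810 CPM in Ts65Dn, with Ts65Dn 3 the highest, and to 271, 313 and 410.2 CPM in 2N libraries. Their median fold change was 0.17, between −0.46 with the glial covariate and 0.68 within prefix 17, and their part in the collagen values was not tested. The calcium channel family Cacna had 10 of 11 positive (0.32). The lowest median was that of symbols starting with St, with 4 of 14 positive (−0.49). Next came Snx sorting nexins with 6 of 14 positive (−0.40) and large ribosomal subunit proteins Rpl with 5 of 25 (−0.38). Fbxo genes followed with 6 of 15 positive (−0.29) and Rab GTPases with 5 of 32 (−0.24). The family Rps, which holds the small ribosomal subunit proteins, was at −0.06 with 9 of 19 positive.

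Apart from the test, 75 well-counted genes (1.13%) had groups that did not overlap, 42 higher in Ts65Dn (0.631%) and 33 lower (0.496%). On log2(TPM + 1), where TPM is the length-scaled share of transcripts, the split was 7 higher and 79 lower and the median well-counted gene lay 0.34 lower in Ts65Dn. With each library centred on its median gene it was 31 and 19, sharing 12 of the 42 and 10 of the 33. Of the genes higher without overlap and not called, Son, a splicing factor gene in the triplicated segment, had 705, 848 and 1110.1 CPM in Ts65Dn and 474, 502 and 656 CPM in 2N libraries (0.72 ± 0.18, adjusted p = 0.0585). Others were Dscaml1, Ssbp4, Ets2, Grik5, Tspoap1 and Myo10, with fold changes of 0.72 to 1.92. Those lower included Gdi2, Plcxd2, Sacm1l, Skp1a, Ssb, Ube4a and Scg5, at −1.76 to −1.05.

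The triplicated segments had raised medians, with members in both directions and 1 call. Of 104 tested genes between Mrpl39 and Zbtb21 on chromosome 16, 74 had positive fold changes (median 0.38), against −0.01 on the rest of that chromosome. On chromosome 17 up to Pde10a 45 of 59 were positive (median 0.54), against 0.04 on the rest. At an unadjusted p under 0.05, 10 genes were higher and 6 lower in the chromosome 16 segment. In the chromosome 17 segment 7 were higher and 2 lower, and over all 19967 tested genes 1071 and 1108. Tiam1 was the only call of the 2 segments together. Dyrk1a, a kinase of neuronal development, had 74.4, 111 and 136 CPM in Ts65Dn and 57.2, 63.7 and 70.1 CPM in 2N libraries, without overlap (0.79 ± 0.29, adjusted p = 0.224). App, the amyloid precursor gene, was at 0.10 ± 0.15 with overlapping groups of 2931, 3915 and 4999.7 CPM in Ts65Dn and 2498, 3771 and 4699.8 CPM in 2N libraries.

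Fold changes followed the base composition of transcripts. Across 6441 well-counted protein-coding genes the fold change and the GC content of the transcript had a Spearman correlation of 0.30 (0.27 without Ts65Dn 3), a description across genes that share libraries. In 5 bins of equal size, ordered from low to high GC, the medians were −0.21, −0.10, −0.03, 0.13 and 0.26. Genes higher in Ts65Dn without overlap numbered 0, 5, 3, 12 and 17 in these bins and those lower 14, 7, 5, 7 and 0. The 21 called protein-coding genes that rose had a median GC content of 58.4% and the 7 that fell one of 48.2%. The scaffold list had 55.3%, against 50.2% over all well-counted protein-coding genes.

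Sequences show how far 2 transcripts picked for their GC content differ. Ssbp4 was taken for high GC among named genes that rose without overlap, and Ssb for low GC among those that fell. The pair is not typical. Median GC content was 55.3% over the 37 protein-coding genes higher without overlap and 44.9% over the 33 lower. The first 90 coding bases of Ssbp4, a single-stranded DNA-binding protein gene (GENCODE M21 on GRCm38, gene at chr8:70597490-70608872, minus strand), and of Ssb, the La RNA-binding protein gene (chr2:69861562-69871846, plus strand), are given 5′ to 3′ with the start codon in capitals.
Ssbp4: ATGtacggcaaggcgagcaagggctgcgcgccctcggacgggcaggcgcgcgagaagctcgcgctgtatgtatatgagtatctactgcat
Ssb: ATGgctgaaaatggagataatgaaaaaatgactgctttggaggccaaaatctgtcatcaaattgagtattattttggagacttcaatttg
GC makes up 61.1% of the first stretch and 33.3% of the second, and 64.3% and 38.1% of the whole transcripts. Ssbp4 had 53.2, 73.7 and 102 CPM in Ts65Dn and 17.3, 20.8 and 43.0 CPM in 2N libraries (1.42 ± 0.38, adjusted p = 0.0939). Ssb had 14.9, 24.7 and 60.7 CPM in Ts65Dn and 61.9, 76.7 and 92.9 CPM in 2N libraries (−1.35 ± 0.38, adjusted p = 0.117).

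The trend was also seen library by library. The mean centred level of the top GC bin minus that of the bottom bin was 0.39, 0.01, 0.62, −0.04, 0.31 and 0.23 in Ts65Dn 1 to 6 and −0.04, −0.09, −0.47, −0.72, −0.03 and −0.18 in 2N 1 to 6. Ts65Dn 3 was the highest and 2N 4 the lowest. With offsets that remove the trend in each library, the correlation was −0.01, 57 genes passed and 50 of these were among the 67. On the supplemented diet the correlation was 0.28. Agap2 stood at 0.92 with the offsets (adjusted p = 0.0641), and the scaffold median at 0.60. The cause of the trend was not tested.

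**Figure D3:**
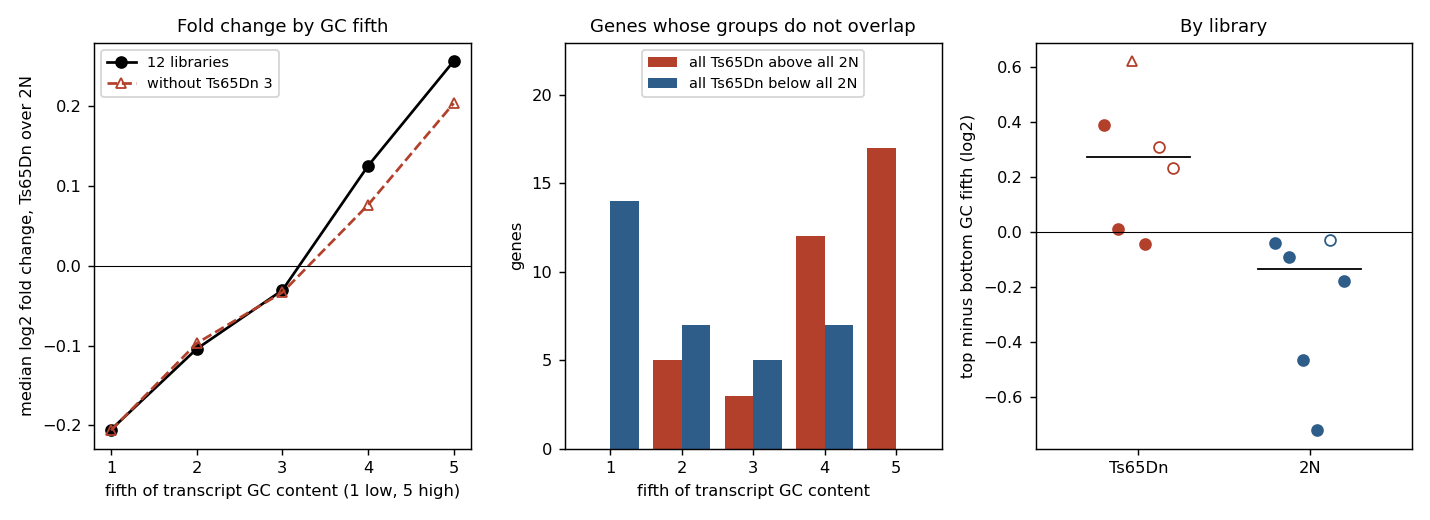
Fold change against transcript GC content for 6441 well-counted protein-coding genes. The left panel gives the median log2 fold change of Ts65Dn over 2N in each of 5 GC bins, the middle panel the number of genes whose groups do not overlap, and the right panel the top minus the bottom bin in each library. Medians climb from −0.21 to 0.26 with GC content, and 0 genes of the lowest bin were higher without overlap against 17 of the highest.

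Lars2 and Mir6236 had the smallest p-values. Lars2, the mitochondrial leucyl-tRNA synthetase, had 3260.3, 6939 and 12659 CPM in Ts65Dn and 350.2, 1209 and 2318 CPM in 2N libraries, without overlap. It rose by 2.51 ± 0.33 (adjusted p = 2.58e-05), while the 20 mitochondrial aminoacyl-tRNA synthetases as a list had a median of −0.21. Reads assigned to the Mir6236 hairpin locus gave 699, 1728 and 2779 CPM in Ts65Dn and 162, 291 and 602 CPM in 2N libraries, also without overlap (2.34 ± 0.33, adjusted p = 0.000107).

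The mature miRNA of that locus (RefSeq, GRCm38.p6, chr9:110281353-110281371, plus strand) is printed 5′ to 3′ with its seed in capitals, since the locus had the second smallest p-value.
Mir6236: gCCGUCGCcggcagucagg
GC makes up 78.9% of its 19 bases, and the total RNA libraries do not measure the mature form as such. The sequence occurs in 1 gene of GENCODE M21, Mir6236 itself. Of 11142 words of 25 bases in Lars2 transcripts none is shared with the mitochondrial rRNAs, and 572 other genes share at least 1 word with Lars2. The 99 words of Mir6236 are shared with no other gene of GENCODE M21 in the same orientation. Sequences outside these transcripts were not searched, so these words cannot tell where the reads came from.

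On the control diet the calls among noncoding RNAs rested mainly on Ts65Dn 3. Small noncoding RNAs had positive fold changes in 207 of 248 cases (median 2.25, and 1.002 without Ts65Dn 3), with 9 called. Identifiers outside GENCODE M21 were positive in 182 of 246 cases (median 1.66, 0.76 without Ts65Dn 3 and 3.84 on the supplemented diet), with 23 called. Over all 19967 tested genes 0.336% were called. Counts of 13 of the 67 called genes were identical to those of another gene, so not all calls are separate. Bc1, a dendritic RNA that represses translation, had 22.7, 56.6 and 15376 CPM in Ts65Dn and 8.28, 18.8 and 38.3 CPM in 2N libraries, the highest being Ts65Dn 3. It rose by 6.87 ± 1.24 (adjusted p = 0.00771), against 1.26 without that library (adjusted p = 0.551). In the supplemented animals, which do not include Ts65Dn 3, Bc1 was at 7.81 (adjusted p = 0.023), and the median of the small noncoding RNAs was 3.71.

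Rpph1, the RNA of ribonuclease P, likewise stood at 3.51 ± 0.81 with Ts65Dn 3 (adjusted p = 0.0407) and at 0.38 without it, and at 2.99 on the supplemented diet (adjusted p = 0.246). Snord17, a small nucleolar RNA, had 17.4, 47.4 and 230.1 CPM in Ts65Dn and 6.44, 11.4 and 32.0 CPM in 2N libraries (2.31 ± 0.54, adjusted p = 0.0412). The most abundant of the unmatched identifiers, ENSMUSG00000119584, had 13528, 19158 and 35085 CPM in Ts65Dn and 3518, 7058 and 12615 CPM in 2N libraries and rose by 1.46 ± 0.24 (adjusted p = 0.0023) without overlap. It passed without Ts65Dn 3 as well (1.25, adjusted p = 0.0215).

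Of the 67 called genes 26 were not well counted, and 25 of these were higher in Ts65Dn. Ts65Dn 3 was the highest of the 12 libraries for 25 of the 26, and 18 had a 2N library with no count. The 1 that fell was Cbll1, an m6A methylation cofactor, chosen here after its values were seen. It had 0, 0 and 0.378 CPM in Ts65Dn and 3.60, 10.3 and 32.3 CPM in 2N libraries.

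The supplemented diet gave a second set of animals for the same contrast, which shares no library with the first although the spread was estimated over all 24. Mitochondrial rRNAs made up 17.8% to 43.3% of counts in its Ts65Dn libraries and 18.1% to 22.6% in its 2N libraries. Its Ts65Dn library 7 had 5097896 counts, 13145 detected genes and Chat at 0.39 CPM. The part of these differences in the contrast was not tested. The labels give 8 Ts65Dn and 4 2N animals on this diet, whereas the series' design text gives 6 per group, and the values below, the test between diets included, follow the labels. There 36 of 19967 genes passed (0.18%). Of the 67 genes called on the control diet 60 had the same sign, and 19 of the 67 passed there as well. Of the 41 well-counted ones 35 had the same sign. The share keeping its sign over all tested genes is not given, so neither count measures replication. Small noncoding RNAs held 9 of the calls and identifiers outside GENCODE M21 held 23. On the supplemented diet the medians of these classes were 3.71 and 3.84, against 0.09 over all tested genes. Atp2b4 was at 0.68, Agap2 at 0.59, Cacna1e at 0.52 and Lars2 at 1.20 there. The scaffold list had 22 of 31 positive members and a median of 0.31.

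Of further genes that rose on the control diet, Plch2 was at 0.37, Mast3 at 0.32, Unc5a at 0.29 and Nptxr at −0.49 there. Of the named genes that fell on the control diet, Qk was at −0.07, Sparc at 0.08, Tspyl4 at 0.14, Nefm at −0.41, Sparcl1 at −0.47, Tmem184c at −0.52 and Ppm1l at −0.53. The difference between diets was tested in the same fit and called 1 gene (0.00501%). This was Mir6236, at 2.34 on the control and −0.72 on the supplemented diet, a difference of 3.06 (adjusted p = 0.000709). For every other gene, the scaffold genes and Qk included, no difference between the diets was shown.

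**Figure D4:**
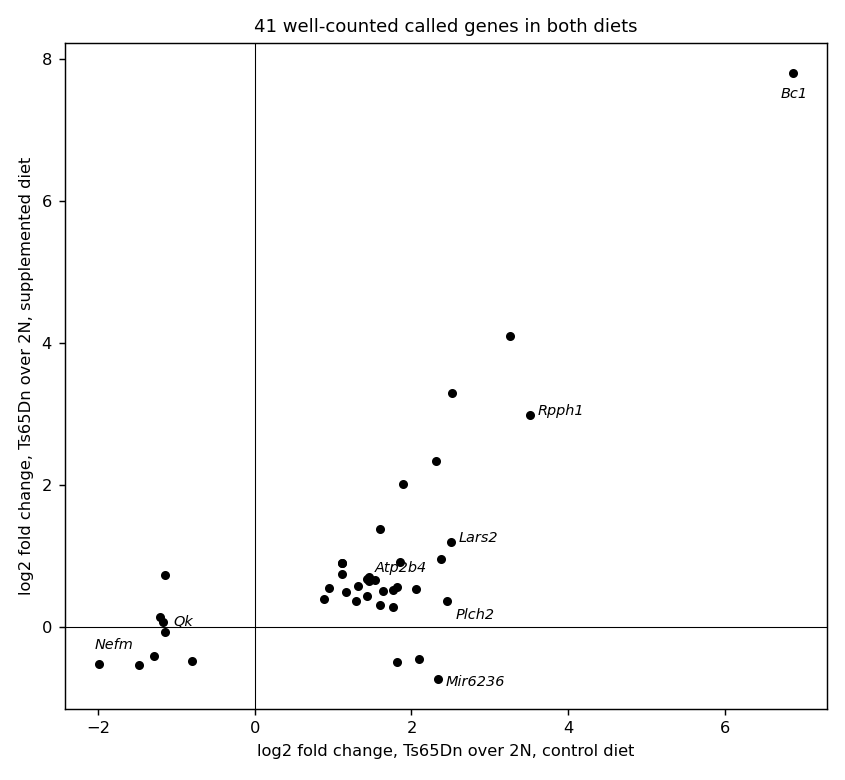
Log2 fold change of Ts65Dn over 2N on the control diet (horizontal axis) and on the supplemented diet (vertical axis) for the 41 well-counted genes called on the control diet, 1 point per gene. Of the 41 points 35 have the same sign on both axes, and Mir6236 lies at 2.34 and −0.72.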

How the data were processed

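Laser-captured ChAT-stained neurons were profiled by total RNA sequencing (SMARTer Stranded Total RNA-Seq Pico kit, single reads of 50 bases). The authors deposited RSEM expected counts and TPM per gene, made after trimming with Trimmomatic 0.39 and alignment with STAR, per the submitters' processing notes. The sources used here give no version of STAR or RSEM and do not say whether counting used strand. The notes list the builds GRCm39 and mm10 without a role, so no coordinates come from the deposited files. The expected counts deposited were rounded to whole numbers before testing. The TPM values deposited served only as an alternative scale.

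All 24 libraries entered 1 edgeR 4.0.16 quasi-likelihood fit (R 4.3.3, limma 3.58.1) with a group term, TMM factors and filterByExpr, and 19967 genes were tested. The mitochondrial rRNAs made up 13.5% to 29.3% of counts in Ts65Dn and 18.9% to 25.8% in 2N control-diet libraries. Of 55414 identifiers 52133 matched GENCODE M21, from which symbols, transcript GC content and segments were taken. Counts of 80 tested genes, 13 of them called, were identical to those of another gene, so that reads shared by copies cannot be assigned. The fit was also run on simulated counts as a check of the code. Their spread was smaller than that of the data, so this run gives no error rate for the calls. Alternatives included DESeq2 1.42.0, limma-voom and leaving out each library.

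Named genes were up to 20 called well-counted genes per direction by smallest p, up to 8 per direction without overlap and not called, 2 of each function list, the leading marker of each marker list and 8 set genes; unnamed models and pseudogenes were passed over. Others named were taken from the counts and lists the text describes. Members and lists were chosen with earlier results of these data known. GC alternatives were added after seeing the data. Some genes are not reported here and were left out of the lists.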

Additional observations from a re-analysis of the deposited data

Results flagged for a closer look

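Within the groups of 6, the gap of the highest or lowest library to its nearest neighbour was measured on log2 CPM. It was more than 0.625 of the group's range on that scale in 20 of 306 pairs of gene and group examined. Chance alone flags about 1 in 20 such pairs. The values below are given in CPM without the logarithm.

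Ts65Dn 3 stood apart for Bc1, at 15375.5 against 97.0 in the next library, and for Rpph1, at 3839.25 against 186. It was the lowest for Gdi2 (6.24463, next 29.7), Sacm1l (3.36249, next 24.0) and Map2 (1176.87, next 1616). Among the other Ts65Dn libraries, Ts65Dn 1 was high for U2af2 (212.429, next 130) and Ts65Dn 5 low for Per3 (2.9457, next 23.6).

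2N 6 was low for Pdlim7 (4.34635, next 13.5), Slc8a2 (16.9675, next 38.9), Plxnd1 (7.02102, next 17.99), mt-Co1 (6296.85, next 9687) and Sorl1 (327.062, next 488). It was high for Rpph1 (148.946, next 52.2), Myo10 (99.2973, next 75.3) and Chd3 (554.828, next 435). 2N 5 was low for Chat (0.799558, next 7.76), Pdgfra (18.6563, next 55.7) and Eef1a1 (478.935, next 643). 2N 2 was high for Scg5 (176.554, next 139) and 2N 4 for Grm5 (236.561, next 140).

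The trisomy effect on Mir6236 differed between the diets by 3.06136 on the log2 scale, in the interaction test of edgeR (adjusted p = 0.000709).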

How the results depend on the processing

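No paired analysis was possible because the labels give animal identifiers and no replicate number shared between the groups. Of 33 alternatives 30 gave fold changes, and the rest only recounted genes without overlap. Under those 30 the 153 named genes gave 4586 values. Of these values 4 reversed, 375 fell short of a threshold passed before and 174 newly passed it. The reversals were Bc1 (−0.36), Nptxr (−0.0815) and Rpph1 (−1.90) with the glial score as covariate, and Rpph1 (−0.0327) with GC offsets and without Ts65Dn 3. The cause was not tested.

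The count of 67 called genes (41 well counted) became 256 (133) with no filter on low counts, 33 (24) with a mean CPM of at least 10, 324 (143) with DESeq2, 3 (2) with limma-voom, 22 (20) with robust edgeR and 3 (3) with the 12 control-diet libraries only. It was 28 (16) with the identifier prefix as a factor, 0 (0) within prefix 17, 162 (124) with the mitochondrial rRNA share and 0 (0) with the glial score as covariate, 116 (74) at an adjusted p under 0.10, 2 (2) without the libraries low in Chat and 4 (4) with GC offsets and without Ts65Dn 3. Within prefix 17, 916 genes had an unadjusted p under 0.05, and 1353 had one with the glial covariate. Leaving out 1 library gave 4 to 127 (4 to 87). It was 4 without Ts65Dn 3, 127 without Ts65Dn 4, 117 without Ts65Dn 2, 43 without Ts65Dn 6, and 22, 19, 22, 21 and 35 without 2N 1, 2, 3, 5 and 6. DESeq2 called all 27 leading named genes and robust edgeR 16.

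The count of 1 gene that differed between diets, Mir6236, became 0 with voom, robust edgeR and either covariate. With the mitochondrial rRNAs, Lars2 and Mir6236 removed from the counts no other gene passed, and Mir6236 itself was not tested. The count of 1 changed further under other settings. It became 126 with no filter, 264 with DESeq2, 12 with the prefix factor, 2 at an adjusted p under 0.10, 9 without the libraries low in Chat, 11 without those with over 50 Xist counts, 11 with GC offsets and without Ts65Dn 3, and 1 to 12 with 1 library left out. Of the well-counted genes without overlap, leaving out 1 library gave 46 to 117 higher and 43 to 90 lower, against 42 and 33 in the main count. With 1 library fewer the groups separate more easily, so a rise follows largely from the rule itself. On log2(TPM + 1) the genes without overlap numbered 7 higher and 79 lower, or 31 and 19 when centred. The biological coefficient of variation was 1.40 and the shallowest library had 4688300 counts.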
